A study of Mus musculus with 8 samples.

Results

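The genes described here are the transcripts of the mitochondrial genome and the nuclear genes that copy that genome and handle its RNA, 55 of the 18088 genes in the count table. The members were taken by name. All 37 rows whose symbol starts with mt- were kept, and they comprise 13 mRNAs, 2 rRNAs and 22 tRNAs. The other 18 are nuclear genes: Tfam, Tfb1m, Tfb2m, Polrmt, Tefm, Polg, Polg2, Ssbp1, Lrpprc, Slirp, Pnpt1, Supv3l1, Mtpap, Fastk, Fastkd1, Fastkd2, Fastkd3 and Fastkd5. No row carries the symbol Fastkd4; this gene is listed as Tbrg4 and was not made a member. All 55 members passed the filter on low counts.

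The libraries are from 3T3-L1 cells, a wildtype mouse fibroblast line that was differentiated in culture into adipocyte-like cells and transfected with siRNA pools. In 4 libraries the siRNA targeted Erk3 (siErk3) and in 4 it was nontargeting (siNTC). Both groups were detached, transfected with 1.25 nM siRNA per square centimeter on Matrigel and used 48 h later. Whether the 4 replicates came from separate cultures is not stated, so a p-value here covers the spread among these libraries and nothing beyond it. RNA was selected by its poly(A) tail and sequenced after a library preparation that keeps no record of the strand. A change in the amount of a mitochondrial RNA and a change in how much of it carries a tail long enough to be captured cannot be told apart in such libraries, and neither can fewer mitochondria-rich cells and less RNA per cell.

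The mitochondrial genome is a small circle that is transcribed from both strands into long precursors. Most mRNAs, both rRNAs and most tRNAs come from the heavy-strand promoter, while mt-Nd6 and the remaining tRNAs come from the light-strand promoter. The tRNAs lie between the other genes, and their excision releases the mRNAs and rRNAs, which then receive short poly(A) tails. The mRNAs encode core subunits of respiratory complexes I, III and IV and of the ATP synthase (complex V), so their supply has to be matched with the nuclear-encoded subunits of the same complexes. In white adipocytes mitochondria serve fatty acid and lipid synthesis as well as ATP production.

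The tRNA genes of 2 clusters of neighbours are shown, chosen after their values were seen, because all members of each cluster were called in the same direction. The first cluster is transcribed from the light strand, between mt-Nd2 and mt-Co1. Sequences are read 5′ to 3′ on the transcribed strand from the GENCODE M21 transcripts (build mm10), with the anticodon in capitals.
mt-Ta (alanine, chrM:5018-5086, minus strand): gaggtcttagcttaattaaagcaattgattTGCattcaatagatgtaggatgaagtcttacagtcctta
mt-Tn (asparagine, chrM:5089-5159, minus strand): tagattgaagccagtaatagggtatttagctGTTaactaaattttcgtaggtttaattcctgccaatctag
mt-Tc (cysteine, chrM:5192-5257, minus strand): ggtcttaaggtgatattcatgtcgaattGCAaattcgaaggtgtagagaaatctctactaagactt
mt-Ty (tyrosine, chrM:5260-5326, minus strand): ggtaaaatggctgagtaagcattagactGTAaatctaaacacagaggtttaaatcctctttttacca

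The second cluster is transcribed from the heavy strand, between mt-Nd4 and mt-Nd5. Its tRNAs follow each other without a gap, and the last shares 1 base with its neighbour.
mt-Th (histidine, chrM:11546-11612, plus strand): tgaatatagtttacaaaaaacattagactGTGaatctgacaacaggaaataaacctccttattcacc
mt-Ts2 (serine, chrM:11613-11671, plus strand): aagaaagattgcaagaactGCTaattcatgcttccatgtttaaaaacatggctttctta
mt-Tl2 (leucine, chrM:11671-11741, plus strand): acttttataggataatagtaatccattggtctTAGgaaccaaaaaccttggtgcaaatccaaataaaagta

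Total counts were 9854522 to 9943572 per library. Levels are CPM (counts scaled to the size of the library) after TMM scaling, given as mean ± SD of 4 libraries. Fold changes are siErk3 over siNTC with their SE, from edgeR's quasi-likelihood test with Benjamini-Hochberg adjustment over all 17972 genes tested. A gene is called at an adjusted p under 0.05. Of all genes tested, 48.7% were called, 24.9% higher and 23.8% lower, and in 43.2% the libraries of the groups did not overlap. The split of calls depended on the scaling: 51.1% of called genes were higher with TMM, 65.1% when only library sizes were used and 39.7% when upper-quartile factors were used. The median of all genes moved by less than 0.1 on the log2 scale under each scaling. The target of the siRNA, Mapk6, which encodes Erk3, fell from 579 ± 18.1 to 69.6 ± 4.80 CPM (log2 fold change -3.06, adjusted p 2.09e-22).

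Other genes moved with the same grouping. Adipocyte markers summed to 27680 to 30310 CPM in siNTC and 16640 to 17690 CPM in siErk3, with 9 of 10 lower and 1 higher, so that the adipocyte label was borne out by its markers in both groups. Interferon-stimulated genes (14 of 14 higher) summed to 129.4 to 141.6 CPM in siNTC and 4535 to 4757 CPM in siErk3. Among 7 measured preadipocyte and fibroblast markers, 6 were lower, with sums of 2307 to 2568 and 2023 to 2134 CPM; Cd34 was not in the table. Of 7 macrophage and leukocyte markers 3 were in the table (2 higher), with sums of 9.89 to 14.5 and 20.4 to 25.0 CPM, and Ptprc, Adgre1, Itgam and Lyz2 were not. The part of these genes in the results below was not tested.

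Mitochondrial mRNAs were lower after Erk3 knockdown, mitochondrial 12S rRNA was higher, and the tRNAs moved in both directions. Of 13 mRNAs 12 were called lower and none higher (92.3% called, against 48.7% of all genes), with a median log2 fold change of -0.71 against 0.00 over all genes tested. The libraries did not overlap in these 12, against 43.2% of all genes tested. mt-Cytb fell furthest, mt-Co1 was not called, and the other 11 fell by 0.41 to 0.81 on the log2 scale. By class, 2 of 2 rRNAs were higher, and of 22 tRNAs 7 were higher, 9 lower and 6 not called (72.7% called).

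**Figure D1:**
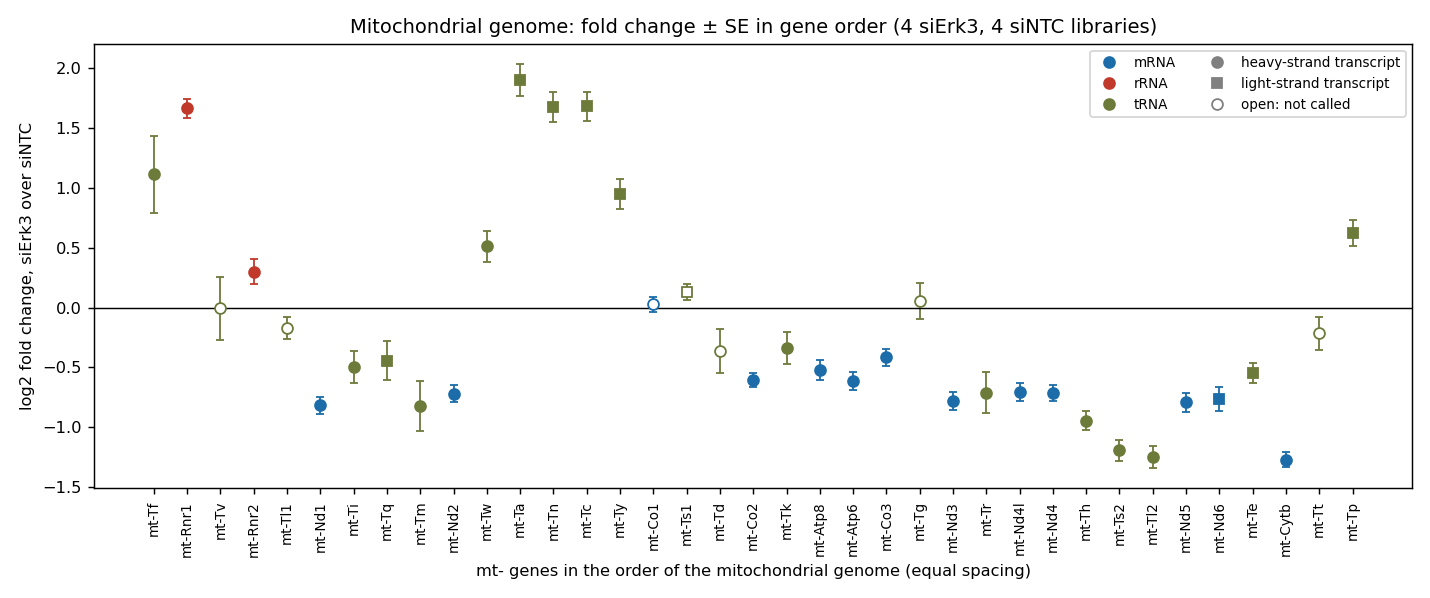
Log2 fold change, siErk3 over siNTC, of the 37 mt- genes in the order of the mitochondrial genome at equal spacing (bars: SE from 4 against 4 libraries; colours: RNA class; circles and squares: heavy and light strand; open: not called). The 12 mRNAs that were called lie below 0, mt-Rnr1 lies at 1.66, and the light-strand cluster from mt-Ta to mt-Ty lies between 0.94 and 1.89.

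mt-Cytb (chrM:14145-15288, plus strand) encodes cytochrome b, the only subunit of complex III made in mitochondria. Its levels were 7638, 6664, 6691 and 7193 CPM in siNTC and 2666, 3077, 2747 and 3211 CPM in siErk3. The lowest control library was far above the highest siErk3 library. The log2 fold change was -1.27 ± 0.06 (adjusted p 3.74e-14), so that siErk3 libraries held 41.5% of the siNTC mean.

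mt-Co1 (chrM:5328-6872, plus strand) encodes the catalytic subunit of cytochrome c oxidase, complex IV. It was the most abundant mitochondrial mRNA per length and the only mRNA not called. Its levels were 20766, 18938, 22577 and 21337 CPM in siNTC and 18906, 22301, 20688 and 23228 CPM in siErk3. The groups overlapped over nearly their whole range, with a log2 fold change of 0.03 ± 0.06 (adjusted p 0.757) whose sign turned to -0.04 with upper-quartile factors, to -0.02 without siNTC replicate 2 and to -0.02 without siErk3 replicate 4. Because the other mRNAs fell, mt-Co1 took 35% to 39.3% of mitochondrial mRNA counts in siNTC and 49.0% to 51.4% in siErk3. The share of mt-Cytb moved the other way, from 11.6% to 12.9% in siNTC to 6.78% to 7.10% in siErk3.

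The other complex IV subunits, mt-Co2 and mt-Co3, which form the catalytic core with mt-Co1, were lower. mt-Co2 was at 3667 to 4170 CPM in siNTC and 2393 to 2876 CPM in siErk3 (log2 fold change -0.60 ± 0.06, adjusted p 1.57e-08). mt-Co3 was at 2378 to 2931 CPM in siNTC and 1749 to 2222 CPM in siErk3, the smallest fall among the mRNAs that were called (log2 fold change -0.41 ± 0.07, adjusted p 3.37e-05). Neither gene overlapped between the groups.

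All 7 complex I subunits of the mitochondrial genome were lower, with log2 fold changes within a narrow range of -0.81 to -0.70. They form the membrane arm of NADH dehydrogenase. mt-Nd1 fell from 4654 ± 368 to 2647 ± 298 CPM (log2 fold change -0.81, adjusted p 1.12e-09) and mt-Nd2 from 2564 ± 137 to 1559 ± 189 CPM (-0.72). mt-Nd3 fell from 139 ± 15.2 to 80.9 ± 8.59 CPM (-0.78). These genes did not overlap between the groups.

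mt-Nd4l and mt-Nd4 lie on a bicistronic mRNA and share 7 bases, and they fell by 0.70 and 0.71 on the log2 scale. mt-Nd4l went from 521 ± 24.2 to 320 ± 49.6 CPM, and mt-Nd4 from 3956 ± 161 to 2414 ± 310 CPM. mt-Nd5 fell from 4039 ± 444 to 2333 ± 297 CPM (log2 fold change -0.79), with siNTC replicate 1 at 4702 CPM and the other controls at 3771 to 3861 CPM.

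mt-Nd6 (chrM:13552-14070, minus strand) is the only mRNA of the light strand. Its levels were 1394, 966, 936 and 1003 CPM in siNTC and 555, 628, 582 and 768 CPM in siErk3, with no overlap (log2 fold change -0.76 ± 0.10, adjusted p 1.24e-06). siNTC replicate 1 stood above the other controls. Its ratio to the heavy-strand mRNAs was 0.0241, 0.0187, 0.0166 and 0.0176 in siNTC and 0.0150, 0.0145, 0.0147 and 0.0165 in siErk3. The ratio was lower in siErk3 (difference -0.00409), at 0.787 times the siNTC mean (exact two-sided permutation p 0.0286, the smallest that 4 against 4 libraries can give). Without siNTC replicate 1 the difference was -0.00248, and the exact p was 0.0571 without that library or any siErk3 library. The heavy-strand sum includes mt-Co1, which was not called and rose from 36.8% to 50.4% of mitochondrial mRNA counts. The fold change of mt-Nd6 lay within the range of the other mRNAs called lower, from -0.81 (mt-Nd1) to -0.41 (mt-Co3), with mt-Cytb beyond it at -1.27. A ratio without mt-Co1 was not tested, so the lower ratio is not a difference between the strands. The 3' end of mt-Nd6 shares 14 bases with mt-Nd5 on the other strand. Without a record of the strand, reads anywhere in mt-Nd6 can come from either strand. Its level and its ratio are therefore not those of a light-strand mRNA alone.

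The ATP synthase subunits mt-Atp8 and mt-Atp6 are read from a single mRNA in overlapping frames. The 43 shared bases are shown because counts of the pair cannot be separated there (chrM:7927-7969, plus strand, mm10), with the start codon of mt-Atp6 and the stop codon of mt-Atp8 in capitals.
mt-Atp8 and mt-Atp6 overlap: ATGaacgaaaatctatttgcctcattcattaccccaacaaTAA

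mt-Atp8 fell from 1142 ± 45.4 to 796 ± 148 CPM (log2 fold change -0.52, adjusted p 1.72e-05) and mt-Atp6 from 4114 ± 160 to 2691 ± 405 CPM (-0.61, adjusted p 2.73e-07). The siErk3 libraries spread further than the controls in both genes, with siErk3 replicate 4 at 996 and 3222 CPM, still below all controls. In each of the 13 mRNAs, replicate 4 was the highest siErk3 library.

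**Figure D2:**
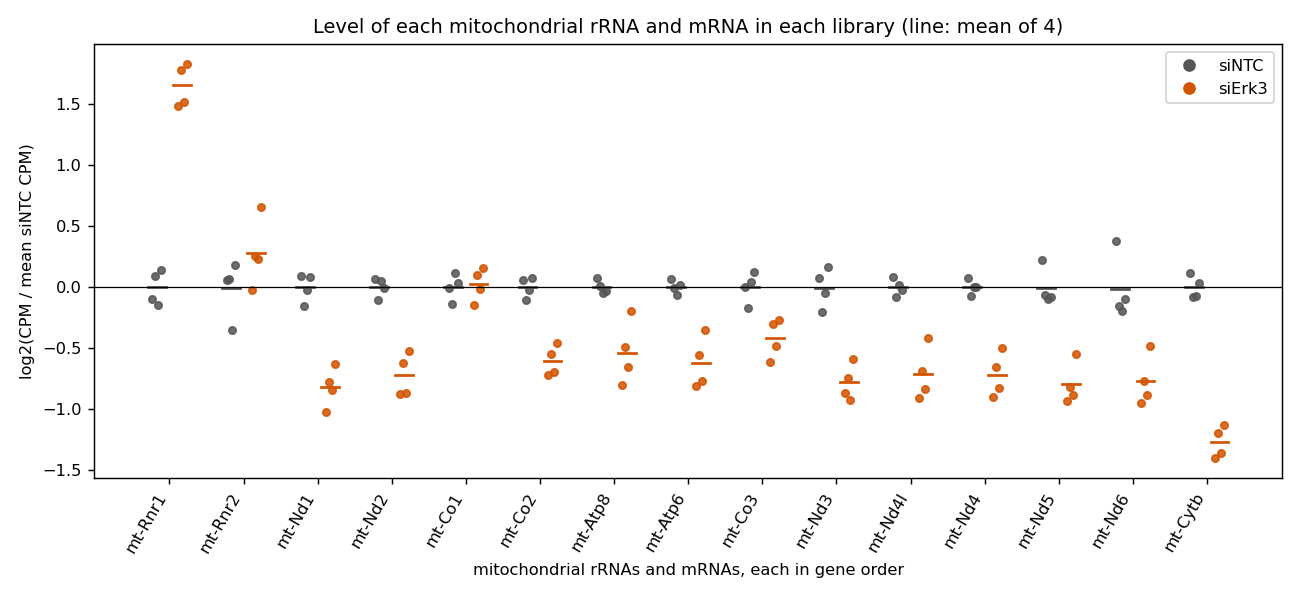
Level of each mitochondrial rRNA and mRNA in each library as log2 of its CPM over the mean siNTC CPM (points: libraries; lines: mean of 4). The siErk3 libraries lie below the controls in 12 mRNAs, overlap with them in mt-Co1 and mt-Rnr2, and lie above them in mt-Rnr1.

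The rRNAs of the small and large mitochondrial ribosomal subunits are neighbours at the start of the heavy-strand transcript, separated by mt-Tv. mt-Rnr1 (12S rRNA, chrM:70-1024, plus strand) was at 786, 893, 757 and 924 CPM in siNTC and 2355, 2876, 2401 and 2988 CPM in siErk3. All siErk3 libraries were above all controls, with a log2 fold change of 1.66 ± 0.08 (adjusted p 1.07e-14), or 316% of the siNTC mean. This rests on 7257 to 8787 counts per siNTC library and 24370 to 30217 per siErk3 library.

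mt-Rnr2 (16S rRNA, chrM:1094-2675, plus strand) was at 2640, 2656, 1991 and 2867 CPM in siNTC and 2496, 3017, 2981 and 3996 CPM in siErk3. The groups overlapped, and the call was weak (log2 fold change 0.30 ± 0.10, adjusted p 0.0217). It was lost with upper-quartile factors (0.23, adjusted p 0.0714), with DESeq2 (0.29, adjusted p 0.188), without siNTC replicate 3 (0.20, adjusted p 0.0952) and without siErk3 replicate 4 (0.16, adjusted p 0.156). The ratio of mt-Rnr1 to mt-Rnr2 counts within a library was 0.298 to 0.381 in siNTC and 0.748 to 0.953 in siErk3.

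The balance of classes was tested on shares within each library, which do not use the TMM factors. Mitochondrial mRNAs took 5.78%, 5.17%, 5.55% and 5.55% of all counts in siNTC and 3.93%, 4.49%, 4.17% and 4.83% in siErk3 (difference -1.16 percentage points, exact two-sided permutation p 0.0286, and -1.07 with exact p 0.0571 without siNTC replicate 1). rRNAs took 0.334%, 0.348%, 0.265% and 0.364% in siNTC and 0.508%, 0.600%, 0.557% and 0.713% in siErk3 (exact p 0.0286). The ratio of rRNA to mRNA counts was 0.0597 ± 0.0089 in siNTC and 0.136 ± 0.0079 in siErk3, 2.28 times higher (exact p 0.0286). The groups did not overlap in these shares, which leave out the nuclear copies described below. Each p is the smallest that 4 against 4 libraries can give, and adjusted over the 4 single values tested it stays at 0.0286. Most rRNA of a cell is removed by poly(A) selection, so these ratios describe the captured RNA.

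**Figure D3:**
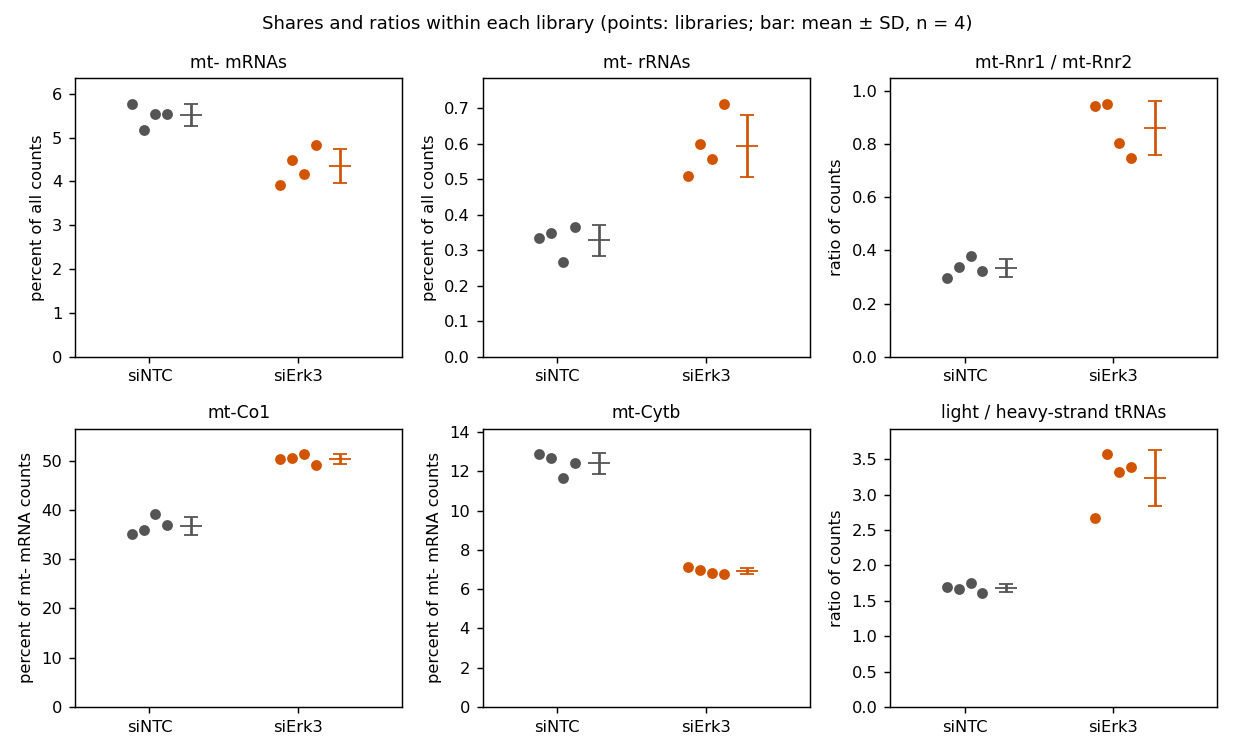
Shares and ratios of counts within each library (points: libraries; bars: mean ± SD of 4; axes start at 0). mt- mRNAs fell from 5.51% to 4.35% of all counts, mt-Co1 rose from 36.8% to 50.4% of mt- mRNA counts, and mt-Rnr1 over mt-Rnr2 rose from 0.334 to 0.863.

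The tRNAs moved in both directions on both strands. In poly(A) libraries without strand information, reads in a tRNA gene can come from the mature tRNA, from an unprocessed precursor, from a neighbouring transcript or from the opposite strand, and these sources cannot be told apart. Of the 8 light-strand tRNAs 5 were higher, 2 lower and 1 not called (87.5% called, against 48.7% of all genes), with a median log2 fold change of 0.78. Of the 14 heavy-strand tRNAs 2 were higher, 7 lower and 5 not called (64.3% called), with a median of -0.35.

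All 4 tRNAs of the light-strand cluster rose. mt-Ta was at 8.02, 6.61, 8.14 and 7.99 CPM in siNTC and 21.4, 28.0, 28.7 and 36.4 CPM in siErk3 (log2 fold change 1.89 ± 0.13, adjusted p 3.66e-11), the largest rise of any mitochondrial transcript. mt-Tn was at 10.1 to 13.9 CPM in siNTC and 30.7 to 50.7 CPM in siErk3 (1.67 ± 0.12, adjusted p 9.1e-11). mt-Tc was at 12.3 to 18.1 CPM in siNTC and 36.3 to 57.0 CPM in siErk3 (1.68 ± 0.12, adjusted p 6.47e-11). These genes did not overlap between the groups. mt-Ty, the cluster member next to mt-Co1, rose less, from 9.41 ± 1.78 to 18.1 ± 2.79 CPM (log2 fold change 0.94, adjusted p 1.45e-06). The origin of light-strand replication lies between mt-Tn and mt-Tc. On the opposite strand of the genome, the flanking mRNAs mt-Nd2 and mt-Co1 were lower and not called, respectively.

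All 3 tRNAs of the heavy-strand cluster between mt-Nd4 and mt-Nd5 fell. mt-Tl2 was at 70.5, 65.1, 82.5 and 83.0 CPM in siNTC and 35.3, 25.3, 30.5 and 35.8 CPM in siErk3 (log2 fold change -1.25 ± 0.09, adjusted p 6.49e-11). mt-Ts2 fell from 51.5 ± 3.83 to 22.5 ± 3.66 CPM (-1.19, adjusted p 8.11e-11) and mt-Th from 42.3 ± 1.77 to 22.0 ± 2.74 CPM (-0.94, adjusted p 5.99e-10). The groups did not overlap in any of the 3.

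Further light-strand tRNAs went either way. mt-Tp (proline), the last gene before the control region, was at 23.7 to 28.8 CPM in siNTC and 29.9 to 49.1 CPM in siErk3 (log2 fold change 0.62, adjusted p 4.1e-05). mt-Te (glutamate), which lies beside mt-Nd6 on the same strand, fell with it, from 94.2 to 110 CPM in siNTC to 60.2 to 87.8 CPM in siErk3 (-0.54, adjusted p 9.43e-06). mt-Tq (glutamine) was called lower (-0.44, adjusted p 0.0291) on 34 to 50 counts per siNTC library and 32 to 36 per siErk3 library. That call was lost with DESeq2 (adjusted p 0.0897), with library sizes only (adjusted p 0.078) and without each of siNTC replicates 1, 2 and 3 and siErk3 replicates 2 and 4 (adjusted p 0.052 to 0.0975).

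mt-Ts1, the most abundant tRNA row with means of 314 ± 32.2 (siNTC) and 343 ± 30.5 CPM (siErk3), was not called (0.13, adjusted p 0.129). It abuts mt-Co1 on the other strand and shares 3 bases with it. It was called higher with library sizes only (0.21, adjusted p 0.00773), without siNTC replicate 3 (0.18, adjusted p 0.0351) and without siErk3 replicate 1 (0.17, adjusted p 0.0489). Summed over all tRNAs, the ratio of light-strand to heavy-strand counts was 1.61 to 1.75 in siNTC and 2.67 to 3.57 in siErk3. Most of the light-strand sum was mt-Ts1. It held 2690 to 3320 of 4241 to 5067 counts in siNTC, and 3226 to 3749 of 5261 to 6793 in siErk3. The share of all tRNAs in all counts overlapped between the groups (0.0688% to 0.0802% and 0.0731% to 0.0887%).

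Among heavy-strand tRNAs outside the cluster, mt-Tm (methionine, -0.82), mt-Tr (arginine, -0.71), mt-Ti (isoleucine, -0.49) and mt-Tk (lysine, -0.34) were called lower at means of 3.13 to 14 CPM, and all but mt-Tr overlapped between the groups. The call of mt-Tk (adjusted p 0.0419) was lost with DESeq2 (adjusted p 0.0512), with library sizes only (-0.25, adjusted p 0.124) and on leaving out siNTC replicate 1 or 4 (adjusted p 0.0589 and 0.211) or siErk3 replicate 3 or 4 (adjusted p 0.201 and 0.0703). mt-Tw (tryptophan), which lies before the light-strand cluster on the other strand, was higher, at 5.52 to 7.20 CPM in siNTC and 8.02 to 10.5 CPM in siErk3 (0.51, adjusted p 0.00246). mt-Tf (phenylalanine), the first gene of the heavy-strand transcript and the neighbour of mt-Rnr1, was higher (1.11, adjusted p 0.00614) on only 4 to 15 counts per siNTC library and 16 to 19 per siErk3 library.

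The remaining 5 heavy-strand tRNAs, mt-Tv, mt-Tl1, mt-Td, mt-Tg and mt-Tt, had log2 fold changes of -0.36 to 0.06 and were not called. The sign of mt-Tv (-0.01 ± 0.26) turned with library sizes only (0.08), with limma-voom (0.01) and without siNTC replicate 1 or 2 or siErk3 replicate 1, 2 or 3 (0.03 to 0.13). The sign of mt-Tg (0.06 ± 0.15) turned with upper-quartile factors (-0.01) and without siNTC replicate 1 or 2 or siErk3 replicate 2 (-0.0955 to -0.00465). mt-Tl1 was called lower with upper-quartile factors (-0.24, adjusted p 0.0287) and without siErk3 replicate 4 (-0.31, adjusted p 0.00138). mt-Td was called lower with upper-quartile factors (-0.43, adjusted p 0.0493), without siNTC replicate 2 (-0.45, adjusted p 0.0499) and without siErk3 replicate 1 (-0.64, adjusted p 0.00288).

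Nuclear copies of mitochondrial genes share these reads. The count table holds 13 rows whose transcript shares stretches of 30 bases with an mt- mRNA, belonging to 10 of the 13 mRNAs. Of these copies 7 lie on chromosome 1, 3 on chromosome 2, 2 on chromosome 4 and 1 on chromosome 13. They took 1.87% to 2.05% of all counts in siNTC and 1.5% to 1.87% in siErk3. Among 5 copies that are identical in all their stretches of 30 bases, the 4 that span 98.9% or more of the mitochondrial gene carried nearly the same counts as that gene. Gm28437 (chr1:24613189-24613971, minus strand) had 0.981 to 1.02 times the counts of mt-Co3, Gm28661 had 0.987 to 1.01 times those of mt-Co2, Gm10925 had 0.997 to 1.01 times those of mt-Atp6 and Gm10222 had 0.951 to 1.03 times those of mt-Nd4l. Gm28439, identical but spanning 62.8% of mt-Nd4, had 0.464 to 0.505 times its counts, and Gm28438, which matches mt-Nd3 in all but a few stretches, had 1.15 to 1.35 times its counts. Gm13340 matches mt-Co1 with 37 of 1545 bases different and had 0.0961 to 0.101 times its counts. The first 60 bases of the pair are shown as an example of what a read must span to be told apart, with the differing bases in capitals.
mt-Co1 (chrM:5328-5387, plus strand): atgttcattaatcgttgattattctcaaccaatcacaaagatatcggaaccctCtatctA
Gm13340 (chr2:22589588-22589647, minus strand): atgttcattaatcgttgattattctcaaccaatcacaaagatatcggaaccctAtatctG

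Most copies fell. Of 13 copies 11 were called lower, 0 higher and 2 not called, while 23.8% of all genes tested were called lower. The 2 not called (Gm13340 at 0.00 and Gm29216 at 0.15) are both copies of mt-Co1. Gm28437 fell by 0.42 on the log2 scale beside 0.41 for mt-Co3, and Gm28661 fell by 0.60 as did mt-Co2. The largest gap was that of Gm11407, a short match to mt-Nd5, which fell by 1.5 on the log2 scale beside 0.79 for mt-Nd5. These are not independent of the mitochondrial genes where the sequences are identical. With copies added to their gene, 12 mRNAs were still called lower and mt-Co1 was not. The mRNAs then took 7.04% to 7.83% of all counts in siNTC and 5.42% to 6.70% in siErk3. mt-Co1 took 33.8% to 37.6% of these mRNA counts in siNTC and 46.8% to 49.2% in siErk3. Neither overlapped between the groups, and neither was tested.

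**Figure D4:**
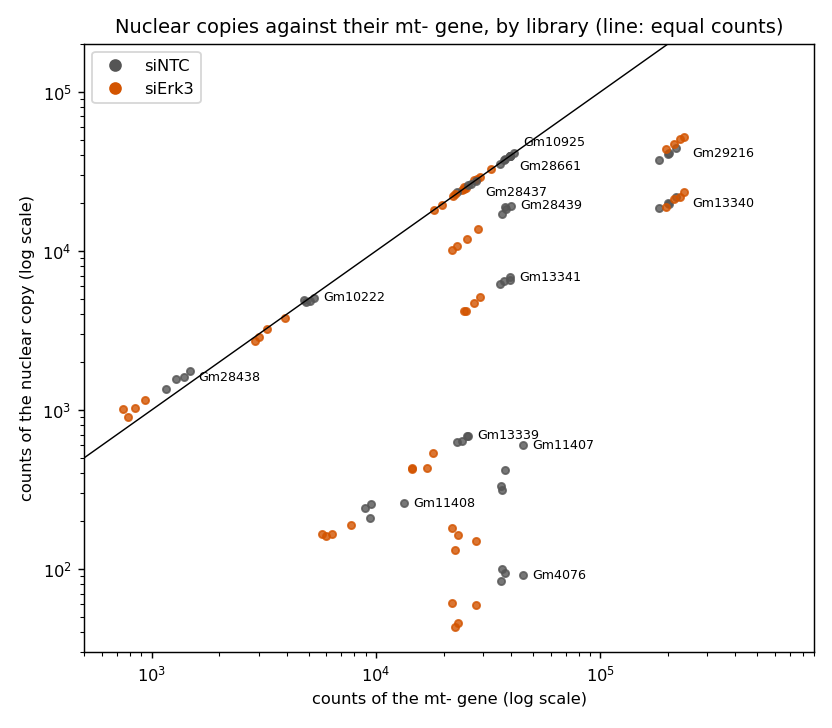
Counts of the 13 nuclear copies against counts of their mt- gene in each library (log axes; line: equal counts; colours: siRNA group). The 4 identical copies of nearly full length lie on or beside the line in all 8 libraries, Gm28438 lies above it, and the other copies lie below it.

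The order of levels per length, given as RPKM (reads scaled to gene length and library size), depended on how the copies were counted. Without them mt-Co1 led in siNTC at 13530.5 ± 979 RPKM, followed by mt-Cytb (6160 ± 405), mt-Atp6 (6041 ± 234), mt-Co2 (5788 ± 334) and mt-Atp8 (5599 ± 223), while mt-Co3 was at 3429 ± 295 RPKM. The treatment of reads with several matches is not stated, and a read counted in both rows would enter the sum again, so sums with copies are an upper figure. Counting every read in both rows would give identical copies the counts of their gene. mt-Co3 and Gm28437 had 25794 and 25836 counts in siNTC replicate 1, but 26435 and 26257 in siNTC replicate 3, so not every read was counted in both. Figures without copies may leave out reads of genes that have copies, and mt-Cytb has none. With the copies added, mt-Co1 led at 17643 ± 1276 RPKM, followed by mt-Co2 (12563 ± 724) and mt-Atp6 (12080 ± 461), which did not differ beyond their spread. mt-Co3 (6861 ± 552), mt-Cytb (6160 ± 405), mt-Atp8 (5599 ± 223), mt-Nd1 (4863 ± 385), mt-Nd4 (4261 ± 193) and mt-Nd4l (3475 ± 118) came next. mt-Co3 and mt-Cytb, and mt-Cytb and mt-Atp8, were within their spread of each other. No copy was added to mt-Atp8. Gm10925 shares stretches with mt-Atp6 and mt-Atp8 but was added to mt-Atp6 alone. Both genes are read from a single mRNA and lay close together without copies. The gap between them with copies, and the place of mt-Atp8 in this order, therefore depend on how copies were assigned. mt-Nd2 (2536 ± 135), mt-Nd5 (2243 ± 250) and mt-Nd6 (2119 ± 415) lay close together, and mt-Nd3 was lowest at 871 ± 96.1 RPKM. In siErk3 mt-Co1 stood at 18194 ± 1648 RPKM and mt-Co2 at 8263 ± 761 RPKM, while mt-Cytb, at 2557 ± 228 RPKM, had dropped to the level of mt-Nd4 (2575 ± 344) and mt-Nd1 (2766 ± 312).

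The fold change of the 12 heavy-strand mRNAs had a Spearman rho of -0.34 with their order along the genome (n = 12 genes of the same libraries, a description), with mt-Co1 in the first part of the order and mt-Cytb at its end.

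The nuclear-encoded subunits of the same complexes were lower as well, by a smaller median. Of 74 measured subunits of complexes I, III, IV and V, 53 were lower, 2 higher and 19 not called (74.3% called, against 48.7% of all genes), with a median log2 fold change of -0.26. By complex, 23 of 36 were lower in complex I (median -0.22), 7 of 8 in complex III (-0.23), 11 of 14 in complex IV (-0.33) and 12 of 16 in complex V (-0.28). The mitochondrial subunits of the same complexes had medians of -0.76, -1.27, -0.41 and -0.57.

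The machinery genes were called about as often as other genes, and in both directions. Of 18 genes 3 were higher, 6 lower and 9 not called (50% called, against 48.7%), with a median log2 fold change of -0.12. With upper-quartile factors 10 were lower. The groups did not overlap in 9 of the 18, near the share over all genes tested (43.2%). The largest change was in Pnpt1.

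Transcription of the mitochondrial genome is started by the polymerase Polrmt with Tfam, which bends the promoter and packages the DNA, and Tfb2m, which opens it. Tfb2m was at 20.9, 18.8, 16.6 and 20.1 CPM in siNTC and 13.4, 14.7, 13.5 and 14.4 CPM in siErk3. The groups did not overlap (log2 fold change -0.45 ± 0.09, adjusted p 0.00027). Tfam averaged 28.9 ± 2.42 and 30.5 ± 2.19 CPM and was not called (0.08 ± 0.08, adjusted p 0.393).

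Polrmt was at 30.7 to 31.8 CPM in siNTC and 28.7 to 30.6 CPM in siErk3. The groups did not overlap, but the log2 fold change of -0.09 ± 0.06 was not called (adjusted p 0.285), and it was -0.16 (adjusted p 0.0493) with upper-quartile factors and 0.00 with library sizes only. Tefm, the elongation factor, was at 13.9 ± 1.14 and 13.4 ± 0.606 CPM and not called (-0.06, adjusted p 0.635), with a sign that changed to 0.03 with library sizes only. Tfb1m, which methylates the 12S rRNA, was at 16.5 ± 0.511 and 14.5 ± 1.49 CPM and not called (-0.19, adjusted p 0.0989). It was called lower with upper-quartile factors (-0.26, adjusted p 0.024) and without siErk3 replicate 1 (-0.24, adjusted p 0.0442).

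Both subunits of the mitochondrial DNA polymerase were lower. Polg, the catalytic subunit of the mitochondrial DNA polymerase, was at 72.9, 67.7, 77.8 and 77.2 CPM in siNTC and 56.1, 52.6, 62.7 and 52.5 CPM in siErk3 (log2 fold change -0.40 ± 0.06, adjusted p 1.85e-05). Polg2, its processivity subunit, was at 9.06, 7.23, 8.87 and 7.68 CPM in siNTC and 6.18, 5.03, 4.19 and 4.95 CPM in siErk3 (-0.69 ± 0.14, adjusted p 0.000277). Neither overlapped between the groups. Polg shares 921 exon bases with Fanci on the opposite strand, and Fanci moved the same way (14.8 ± 1.49 and 10.4 ± 0.614 CPM). Ssbp1, the single-stranded DNA binding protein, was at 22.6 ± 1.91 and 20.5 ± 1.58 CPM and not called (-0.14, adjusted p 0.187), although it was called with upper-quartile factors (-0.21, adjusted p 0.0434).

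Pnpt1 rose most among the machinery genes. It encodes polynucleotide phosphorylase, which with the helicase Supv3l1 degrades mitochondrial RNA and removes double-stranded RNA, and it is also known as a gene induced by interferon. Its levels were 19.5, 21.1, 14.9 and 20 CPM in siNTC and 58.2, 59.0, 54.5 and 56.8 CPM in siErk3. All siErk3 libraries were above all controls by a wide margin (log2 fold change 1.60 ± 0.08, adjusted p 4.69e-14, or 303% of the siNTC mean). Its partner Supv3l1 was at 29.2 ± 1.81 and 26.9 ± 1.77 CPM and not called (-0.12, adjusted p 0.185), although it was called lower with upper-quartile factors (-0.19, adjusted p 0.0354). The interferon-stimulated genes whose sums are given above rose in the same libraries as Pnpt1.

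The 90 bases before the start of Pnpt1 are shown because they hold an IRF element, AANNGAAA, the short site of interferon regulatory factors (RefSeq promoter, GRCm38.p6, chr11:29130654-29130743, plus strand), in capitals. It begins 65 bases before the start.
Pnpt1 promoter: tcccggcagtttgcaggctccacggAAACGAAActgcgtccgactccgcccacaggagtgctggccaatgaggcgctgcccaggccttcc

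Promoters of 250 bases before to 50 bases after the start were matched for 17 of the 18 machinery genes, and motifs were searched on both strands. The IRF element was in 6 of these 17 (Fastkd1, Fastkd2, Pnpt1, Polg2, Slirp and Supv3l1) and in 23.9% of all 32851 promoters, and of the 6 genes 3 were higher, 2 lower and 1 not called. The longer core of the interferon-stimulated response element, GAAANNGAAA, which contains the IRF element, was in 1 (Fastkd1, which was lower) and in 3.44% of all promoters. The ETS motif CCGGAAGT, read by the GA-binding protein, was in 4 (Fastkd5, Polg, Tefm and Tfam) and in 3.89% of all promoters.

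Lrpprc and Slirp form the complex that stabilizes mitochondrial mRNAs and keeps them polyadenylated. Their counts moved in opposite directions, but those of Slirp cannot be assigned to its mRNA alone. Lrpprc was at 95.0, 88.1, 86.0 and 91.7 CPM in siNTC and 81.1, 81.5, 75.2 and 79.1 CPM in siErk3 (log2 fold change -0.19 ± 0.05, adjusted p 0.0063). The groups did not overlap, but scaling by library sizes only removed the call (-0.10, adjusted p 0.133). Slirp was at 39.3, 36.8, 36.7 and 35.1 CPM in siNTC and 54.9, 53.8, 49.6 and 55.0 CPM in siErk3 (0.53 ± 0.06, adjusted p 1.41e-07). Of its 3104 exon bases 2914 lie opposite Snw1, which rose by as much (61.9 ± 2.13 and 87.3 ± 3.72 CPM, log2 fold change 0.50), so unstranded reads cannot be divided between them. Slirp also shares 122 exon bases with Alkbh1 on the opposite strand, which was higher too (log2 fold change 0.36). Mtpap, the polymerase that adds the mitochondrial poly(A) tails, was at 35.4 ± 1.79 and 34.3 ± 1.83 CPM and not called (-0.04, adjusted p 0.617), with a sign that changed to 0.04 with library sizes only. Further overlaps with opposite-strand genes were 1147 exon bases for Mtpap, 250 for Supv3l1, 142 for Tfb1m and 132 for Polg2.

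The Fastk family are RNA-binding proteins of mitochondrial RNA granules that act on single mitochondrial transcripts. Fastk, which stabilizes the mt-Nd6 mRNA, was at 102, 113, 104 and 106 CPM in siNTC and 90.1, 85.2, 86.9 and 87.8 CPM in siErk3 (log2 fold change -0.28 ± 0.05, adjusted p 0.000112). It shares 1141 exon bases with Slc4a2 on the opposite strand, which also fell (-0.45). Fastkd1 was at 20, 20.6, 20.9 and 21.5 CPM in siNTC and 16.2, 16.5, 14.7 and 15.4 CPM in siErk3 (-0.40 ± 0.08, adjusted p 0.000236). Neither gene overlapped between the groups.

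Fastkd2, which binds the 16S rRNA, was called higher (14.5 ± 2.02 and 17.4 ± 1.57 CPM, log2 fold change 0.26, adjusted p 0.0362), but its groups overlapped. The call was lost with DESeq2 (adjusted p 0.0748), with upper-quartile factors (0.19, adjusted p 0.119) and on leaving out any one of siNTC replicates 1, 2 and 3 and siErk3 replicates 1, 2 and 4 (adjusted p 0.0545 to 0.122). Fastkd3 was at 9.20 ± 1.01 and 8.42 ± 1.11 CPM and not called (-0.13, adjusted p 0.413). Fastkd5, which is needed for transcripts whose ends are not set by tRNAs, was at 17.5 ± 1.30 and 17.9 ± 1.12 CPM and not called (0.03, adjusted p 0.767), with a sign that changed to -0.04 with upper-quartile factors. It shares 1966 exon bases with Ubox5 on the same strand.

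**Figure D5:**
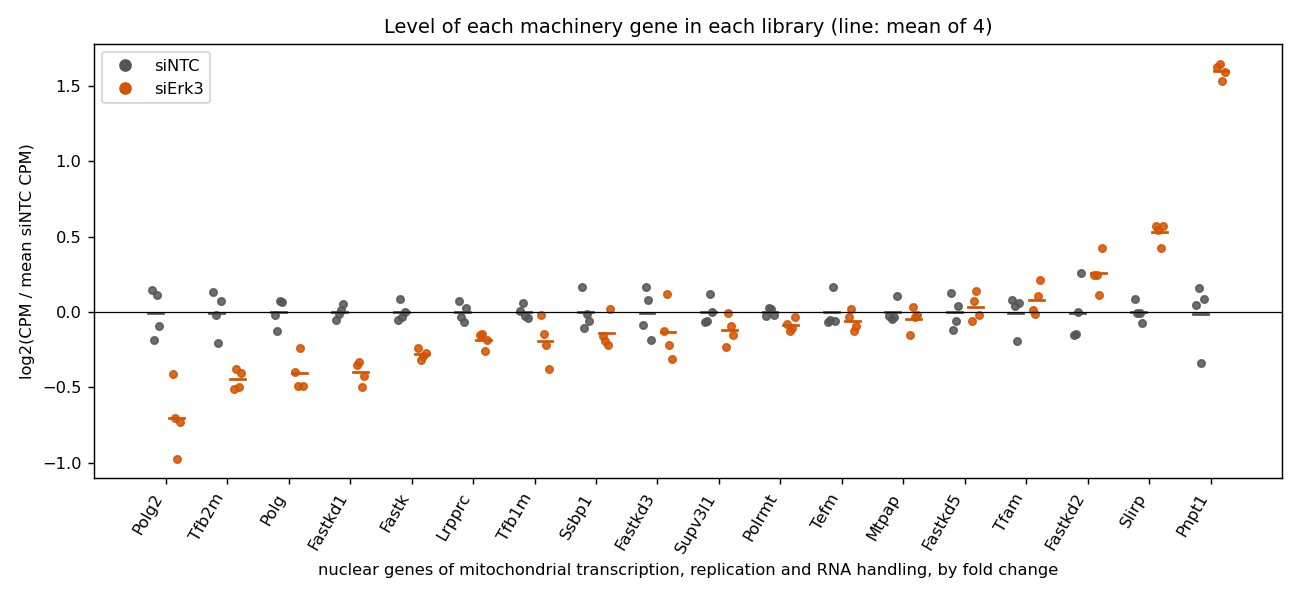
Level of each of the 18 machinery genes in each library as log2 of its CPM over the mean siNTC CPM, ordered by fold change (points: libraries; lines: mean of 4). Pnpt1 and Slirp lie above all controls, 7 genes from Polg2 to Polrmt lie below all controls, and the others overlap with them. Of all genes tested, 43.2% did not overlap. Unstranded reads of Slirp cannot be divided from those of Snw1.

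Of the wider mitochondrial gene expression lists, 109 genes in 8 lists, 14 were higher, 43 lower and 52 not called (52.3% called, against 48.7%), with a median log2 fold change of -0.15. RNA processing and modification had 4 higher and 9 lower of 28, RNA decay and translational control 2 and 3 of 9, transcription termination and regulation 0 and 1 of 5, and DNA replication and nucleoid 1 and 4 of 10. Nucleotide supply had 5 higher and 5 lower of 12, translation factors 0 and 7 of 15, aminoacyl-tRNA synthetases 1 and 11 of 20, and nuclear regulators of mitochondrial genes 1 and 3 of 10. With library sizes only 26 of the 109 were lower, and with upper-quartile factors 8 were higher.

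The largest changes of these lists were in nucleotide supply. Cmpk2, a mitochondrial kinase that makes nucleotides for mitochondrial DNA synthesis and an interferon-stimulated gene, had 1 to 2 counts per siNTC library and 1531 to 1601 per siErk3 library, a ratio of 978 (95% exact interval 449 to 2666, counting error only). Samhd1, which breaks down deoxynucleotides and is also induced by interferon, rose from 54.2 ± 2.46 to 186 ± 2.89 CPM (log2 fold change 1.78, adjusted p 2.08e-18). Ak4, an adenylate kinase of the mitochondrial matrix, fell from 67.8 ± 2.81 to 34.1 ± 2.10 CPM (-0.99, adjusted p 2.49e-12).

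Among regulators, Ppargc1b, a coactivator of mitochondrial biogenesis, fell from 45.7 ± 2.68 to 25.9 ± 2.48 CPM (log2 fold change -0.82, adjusted p 2.07e-09), and Esrra, a nuclear receptor it acts on, from 148 ± 5.75 to 111 ± 9.89 CPM (-0.41, adjusted p 5.57e-06). Taco1, the translational activator of mt-Co1, fell from 20.8 ± 2.03 to 13.3 ± 0.963 CPM (-0.64, adjusted p 3.52e-06). Endog, the mitochondrial endonuclease G, fell by 0.59 and Ears2, the glutamyl-tRNA synthetase, by 0.58 on the log2 scale.

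Mterf4, which acts in assembly of the large mitochondrial ribosomal subunit, fell from 19.2 ± 1.46 to 11.2 ± 1.46 CPM (log2 fold change -0.77, adjusted p 8.7e-07). It shares 1855 exon bases with Sned1 on the opposite strand, which fell from 32.7 ± 1.42 to 4.48 ± 0.506 CPM, and the pair cannot be told apart there. Of the most abundant called genes, Slc25a4, the ADP/ATP carrier, fell by 0.24, Ak3, the matrix GTP-AMP kinase, by 0.27, and Lonp1, the matrix protease that degrades Tfam, by 0.14 on the log2 scale (adjusted p 0.0282). Lonp1 lost its call when only library sizes were used (-0.05, adjusted p 0.438) and without siNTC replicate 1 (-0.14, adjusted p 0.0579) or siErk3 replicate 2 (-0.10, adjusted p 0.115).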

How the data were processed

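Poly(A) RNA of 8 libraries (4 siErk3, 4 siNTC) was sequenced on an Illumina NextSeq 500, and samples were grouped by their labels. The authors deposited raw counts per gene. Reads were mapped to mm10, and the tools listed in the labels are bcl2fastq, FastQC, Bowtie2 and edgeR. How reads with several matches were treated, which annotation and counter were used, and whether strand was considered are not given in the sources used here. A second deposited table holds the authors' own edgeR comparison (log2 fold change, average log2 CPM, p-value, adjusted p-value) and was not used. No column of per-sample values was left unmapped.

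Counts were fitted with edgeR 4.0.16 under R 4.3.3 (filterByExpr with a minimum count of 10 and total of 15, TMM factors of 0.960 to 1.05, quasi-likelihood test, siNTC as reference). The common biological coefficient of variation was 6.08%. Replicates of a group differed by more than sampling noise, where the chi-square divided by the number of genes was 1.95 to 8.15 in the 12 pairs. Single values within libraries were compared by exact permutation tests (Python 3.11.15, scipy 1.17.1). Coordinates, exon unions and overlaps come from GENCODE M21 and promoters from RefSeq. Nuclear-encoded subunits were taken by symbol (Nduf, Uqcr, Cox4 to Cox8, Atp5). Nuclear copies are genes sharing at least 40 stretches of 30 bases with an mt- mRNA. Intervals cover counting error only.

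In data simulated for siErk3 against siNTC (17766 genes tested, 50 changed at each fold), 32%, 72%, 84% and 98% of changes of 1.25-, 1.5-, 2- and 4-fold were recovered, and 5 of 148 calls were unchanged genes. Only 200 genes were changed there, while 48.7% of genes were called in the data. The adjustment therefore sets a different cutoff, and these rates are not those of the comparison itself.

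Alternatives were RLE factors, upper-quartile factors, library sizes only, scaling from nuclear genes, DESeq2 1.42.0, limma-voom (limma 3.58.1), omitting the filter, requiring 5 CPM in 4 or more libraries, the replicate number as a block, each library left out, and nuclear copies added to their gene, the last chosen after seeing the data. The members and gene lists were chosen with earlier results of these data known. Every mt- mRNA and machinery gene is named, and of the wider lists the 8 called genes with the largest change and the 4 most abundant called genes.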

Additional observations from a re-analysis of the deposited data

Results flagged for a closer look

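In 7 of 118 groups of 4 values (the 55 members and the 4 single values tested, each in siNTC and siErk3), 1 library lay further from the others than Dixon's criterion allows at the 95% level, where chance gives about 1 in 20 groups (5.9). All 7 are siNTC libraries. siNTC replicate 1 was high for mt-Nd5 (4702 CPM, others 3771 to 3861) and mt-Nd6 (1394 CPM, others 936 to 1003), neighbours that share 14 bases. mt-Ta was low in siNTC replicate 2 (6.61 CPM, others 7.99 to 8.14) and mt-Tr high in siNTC replicate 4 (6.52 CPM, others 4.65 to 4.70). siNTC replicate 3 was low for Tfam (25.3 CPM, others 29.6 to 30.4) and high for Tefm (15.7 CPM, others 13.3 to 13.4). siNTC replicate 4 was high for Mtpap (38.1 CPM, others 34.3 to 34.7).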

How the results depend on the processing

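The 12 mRNAs called lower were 12 under every alternative run, and mt-Rnr1, mt-Cytb and Pnpt1 kept their direction and call in all of them. Upper-quartile factors gave 10 machinery genes lower, and 8 genes of the wider lists higher. Library sizes only gave 26 genes of the wider lists lower. Leaving out each library in turn, the difference in the share of mRNAs was -1.31 to -1.01 percentage points, and that of the mt-Nd6 ratio -0.00499 to -0.00248, with exact p of 0.0571 for the share without siNTC replicate 1 and for the ratio without siNTC replicate 1 or any siErk3 library. No result reversed among those called.

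With the replicate block, the single values could not pass the threshold, since 4 pairs allow no p under 0.125 in an exact sign-flip test: the differences were -1.16 and 0.267 percentage points for the shares of mRNAs and rRNAs, 0.0764 for the ratio of rRNA to mRNA and -0.00409 for the mt-Nd6 ratio. Same-numbered libraries correlated at -0.013 to 0.073 and differently numbered ones at -0.12 to 0.0714, so no pairing by number was seen. Such correlations cannot show that the libraries were not prepared in pairs, and this is not stated. The block gave 8793 calls, beside 8745 without it.

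Precision is limited by 4 libraries a group and by low counts for mt-Tf and mt-Tv (4 to 24 per library). It is also limited by unstranded reads, at overlapping genes and across mt-Nd6 and the tRNAs, and by reads shared with nuclear copies.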
